A study of Mus musculus with 9 samples.

Results

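The genes for the factors that start and elongate translation were described across 9 RIP-seq libraries of N2A cells, a mouse neuroblastoma line. A gene was taken when its symbol in the deposited table began with Eif1 to Eif6, or with Eef1 or Eef2. The exon junction gene Eif4a3, the eIF2 kinases (Eif2ak symbols) and symbols containing -ps were left out. This gave 65 of the 54325 gene symbols, and 413 of the 140658 transcripts. The 16 genes here called TOP-type are Eef1a1, Eef2 and 14 Eif3 symbols, as the gene group was defined, and the other 49 make up the comparison group. All cells had received 200 nM okadaic acid, a phosphatase inhibitor, for 2 h. RNA was sequenced as short RNase I fragments without immunoprecipitation (Input), after immunoprecipitation with rabbit IgG (rIgG IP), or after immunoprecipitation with antibody to phosphorylated UPF1 (p-UPF1 IP), in 3 libraries each. No untreated cells were among these groups, and the labels do not say whether the 3 libraries of a group came from separate cultures, so p-values measure the spread between these libraries, which may be technical.

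UPF1 is the RNA helicase at the centre of nonsense-mediated mRNA decay (NMD), and it is phosphorylated during that decay. The translation factors act in order. eIF1, eIF1A and eIF3 prepare the small ribosomal subunit, eIF2 carries the initiator tRNA and is recharged by eIF2B, and the eIF4 proteins recognise the cap and unwind the mRNA. eIF5 and eIF5B lead to subunit joining, and eEF1 and eEF2 then drive elongation. Many mRNAs of the translation machinery carry a 5′ terminal oligopyrimidine (TOP) tract, a run of C and U that begins with C at the cap, and their translation depends on mTOR. Eef1a1, Eef2 and several Eif3 mRNAs are textbook members of that class.

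Total counts ran from 25184464 to 29857955 in the Input libraries, from 5312526 to 6246110 in the p-UPF1 IP and from 79010 to 474491 in the rIgG IP. Levels are given as CPM, counts scaled to the total of the library and divided by its TMM factor. By the total alone, 3 counts stand for 0.1005 to 0.119 CPM in the Input, 0.480 to 0.565 CPM in the p-UPF1 IP and 6.32 to 37.97 CPM in the rIgG IP. With the TMM factors of the levels below, 3 counts are 7.54, 14.2 and 24.01 CPM in the 3 rIgG IP libraries. All these floors cover counting error only. The sympathetic markers Phox2a, Hand2 and Gata3 and the neuronal genes Stmn2 and Tubb3 were detected in every Input library, whereas Nefl had no count and Nefm 1 count in all. Of the 65 genes, 1 (Eif2c5) had no count anywhere, and Eif2s3y and Eif4e1b were too low to test in the p-UPF1 IP against the Input.

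Eef1a1 dominated the group. The 65 genes took 0.370 to 0.382% of all counts in the Input, 0.307 to 0.333% in the rIgG IP and 0.246 to 0.266% in the p-UPF1 IP. Of these counts, the 16 TOP-type genes held 67.1, 67.9 and 66.2% in the 3 Input libraries and 66.1, 70.1 and 69.6% in the rIgG IP, but 38.9, 40.8 and 42.2% in the p-UPF1 IP. The p-UPF1 IP libraries lay below all 6 others, and the rIgG IP overlapped the Input. Eef1a1 alone went from 38.2 to 38.6% in the Input to 7.17 to 8.44% in the p-UPF1 IP. The share of Eef2 was 14.8 to 16.3% in the Input and 16.9 to 18.9% in the p-UPF1 IP, and that of the Eif3 genes was 12.8 to 13.2% and 14.8 to 14.9%. Eif4a2 and Eif4h together went from 1.85 to 1.91% to 15.6 to 18.1%. With Eef1a1, Eif4a2 and Eif4h set aside, the TOP-type share was 48.1, 49.2 and 46.7% in the Input against 42.4, 43.5 and 44.5% in the p-UPF1 IP, so these 3 genes carried most of the shift.

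**Figure D1:**
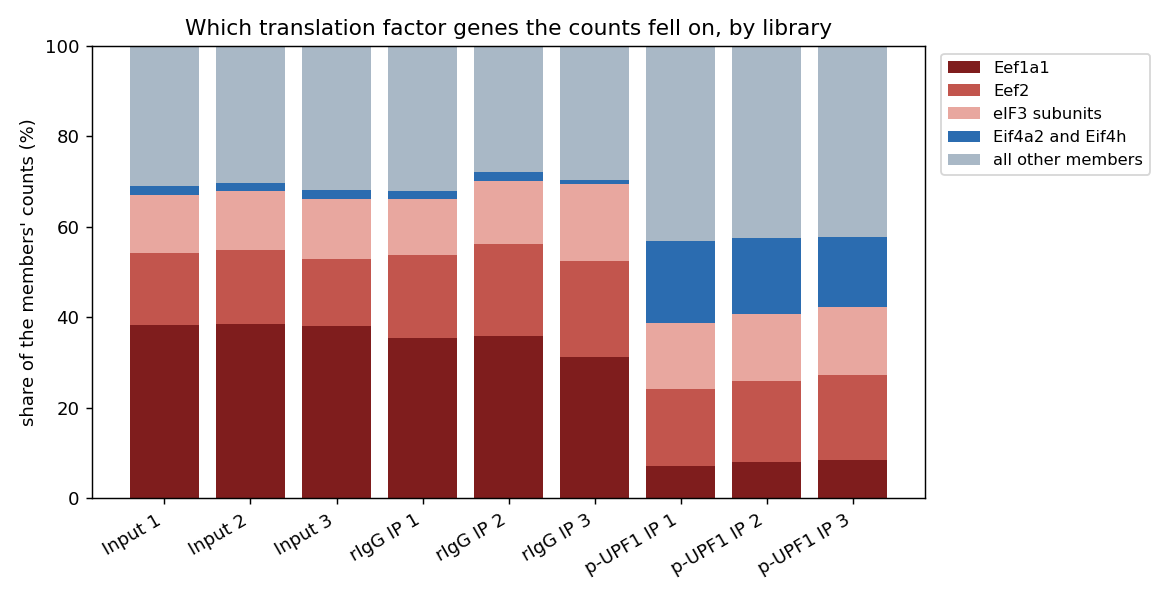
Stacked bars give the share of the counts of the 65 genes (%, y axis) that fell on Eef1a1, Eef2, the Eif3 genes, Eif4a2 with Eif4h and all other members in each of the 9 libraries (x axis). The Eef1a1 segment is 7.17 to 8.44% in the p-UPF1 IP and 31.2 to 38.6% in the other 6 libraries.

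To ask which factor mRNAs were recovered with p-UPF1, counts were summed per gene and compared with edgeR's quasi-likelihood test over all symbols, with Benjamini-Hochberg adjustment. A gene is called higher or lower here at an adjusted p under 0.05. Against the Input, 62 of the 65 genes could be tested. Of these, 12 were higher (background 26.3% of all symbols tested), 35 were lower (56.5%, background 35.7%) and 15 were not called. With a log2 fold change beyond 1, 5 were higher (background 17.3%) and 24 were lower (background 26.5%). The median log2 fold change was -0.78, and that of all symbols tested was -0.42. When libraries were scaled by their totals alone, the median of all symbols moved up by 0.41 and the counts became 20 higher and 32 lower.

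The TOP-type genes had the lower median. Of the 16, 11 were lower (68.8%), 4 were not called and only Eif3b was higher, with a median log2 fold change of -1.43 and a range of -3.67 to 0.43. Of the 46 others tested, 24 were lower (52.2%), 11 were higher and 11 were not called, with a median of -0.62 and a range of -4.04 to 2.46. Of all symbols tested, 35.7% were lower and 26.3% were higher. Per library, the median of the TOP-type genes relative to the Input minus that of the others, on a log2(CPM + 1) scale, was -0.91, -0.88 and -0.77 in the p-UPF1 IP and -0.01 to 0.02 in the Input. In the rIgG IP it was -0.15, 0.04 and 0.73, so the 3 rIgG IP libraries did not share a direction. The difference of the medians in the fitted values was -0.81. It became -2.08 when TOP-type was replaced by a narrower list of 9 textbook TOP genes (Eef1a1, Eef1b2, Eef1d, Eef1g, Eef2, Eif3e, Eif3f, Eif3h and Eif4b). Of these 9, 7 were lower (background 35.7%) and Eef1d and Eif4b were not called. No test was made of these medians, since genes are not replicates.

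**Figure D2:**
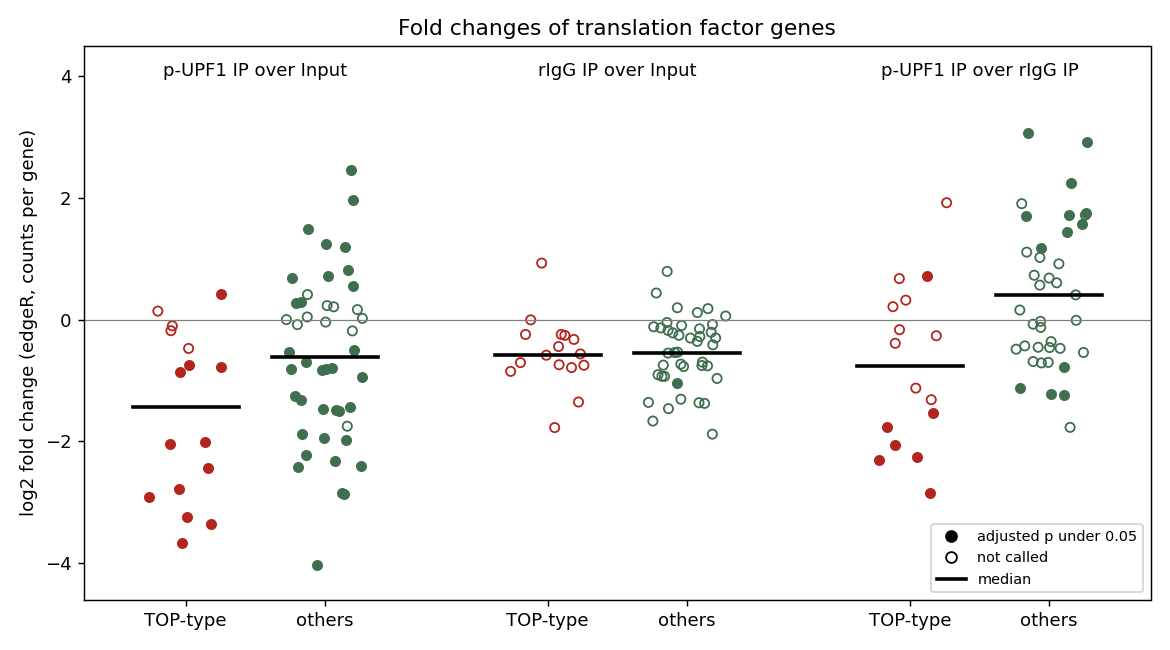
Each point is a gene's log2 fold change (y axis) in the comparison named above it, for TOP-type genes (red) and the others (green). Filled points have an adjusted p under 0.05, bars are medians, and genes at 0 counts in every library of a group are counted in the medians but not drawn. In the p-UPF1 IP over the Input the medians are -1.43 and -0.62, and in the rIgG IP over the Input -0.57 and -0.54.

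Few genes were called in the rIgG IP. Against the Input, 62 genes were tested, 0 were higher (background 0.584%) and 1 (Eif1) was lower (background 0.313%) by edgeR. At an unadjusted p under 0.05, edgeR gave 0 higher and 16 lower, and DESeq2 gave 1 higher and 6 lower. The medians were -0.57 for TOP-type genes, -0.54 for the others and -0.84 for all symbols. With the 4 others that had no count in any rIgG IP library put at the bound that 3 counts allow, the median of the others was -0.33. With DESeq2 the median of all symbols moved up by 1.09, and 0 were called higher and 1 lower. In these shallow libraries Eef1a1 had at most 517 counts, Eef2 at most 268 and every other member at most 76. Against the rIgG IP, 57 genes could be tested in the p-UPF1 IP, and 11 were higher (background 17.9%), 10 were lower (background 5.59%) and 36 were not called. Among the TOP-type genes 1 was higher and 6 were lower, with a median of -0.76, and among the 41 others 10 were higher and 4 were lower, with a median of 0.41, against 0.89 for all symbols. With Eif2b4 and Eef2kmt, which had no count in any rIgG IP library, put at the bound that 3 counts allow, the median of the others became -0.01. RLE factors gave 8 higher and 13 lower, DESeq2 gave 7 higher and 14 lower, and the median of all symbols moved by -0.27 and -0.64.

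Among the elongation factors, the largest change in counts was that of Eef1a1, which encodes the factor that delivers aminoacyl-tRNA to the ribosome. The gene lies on the minus strand at chr9:78478449-78489151 (GRCm38). Its TMM-scaled level was 1726, 1719 and 1759 CPM in the Input, 1299, 1098 and 656 CPM in the rIgG IP and 166, 191 and 204 CPM in the p-UPF1 IP. The 3 groups did not overlap, with the rIgG IP between the others. It was 9.43-fold lower in the p-UPF1 IP than in the Input (log2 fold change -3.24 ± 0.09 SE, adjusted p = 1.30e-09) and 4.76-fold lower than in the rIgG IP (-2.25 ± 0.21 SE, adjusted p = 1.05e-08). The rIgG IP itself was at -0.74 ± 0.24 SE against the Input (adjusted p = 0.230). Of the distinct 35-nt windows of the Eef1a1 transcripts, 48.0% also occur in transcripts of other symbols, so the assignment of its reads is uncertain. The 27 symbols that share them held 1577 to 1865 counts in the Input and 91 to 115 in the p-UPF1 IP, against 36674 to 42229 and 935 to 1351 for Eef1a1.

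Its paralog Eef1a2, the form that replaces eEF1A1 in mature neurons and muscle, did not follow it. Eef1a2 was at 29.7, 28.2 and 27.6 CPM in the Input and 39.9, 34.6 and 31.6 CPM in the p-UPF1 IP, with no overlap. It was higher by 0.28 ± 0.10 SE on the log2 scale (adjusted p = 0.0265), a call that was lost without the first p-UPF1 IP library (0.22, adjusted p = 0.0535). The call was also lost when its only transcript, with the same counts, was fitted among all transcripts (-0.017 ± 0.12 SE, adjusted p = 0.926). The sign thus depends on the scaling. In the rIgG IP it was at 40.2, 0 and 32.01 CPM. None of its 35-nt windows is shared (0%). The other subunits of eEF1, which recharge eEF1A with GTP, split. Eef1b2 and Eef1g were lower, by 1.94 and 2.84 on the log2 scale, whereas Eef1d was at 0.02 ± 0.08 SE (adjusted p = 0.833). Of the windows of Eef1g, 46.9% are shared with other symbols, chiefly Gm4366. Its level was 71.6, 40.03 and 69.2 CPM in the Input, and the symbols that share its windows had 127, 654 and 130 counts in the same libraries, so the assignment of its reads is uncertain. In the p-UPF1 IP it was at 7.30, 10.1 and 8.15 CPM, below all Input libraries.

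Eef2 (chr10:81176631-81182498, plus strand), which encodes the translocase, had the smaller difference. Its level was 722, 724 and 681 CPM in the Input, 673, 620 and 448 CPM in the rIgG IP and 393, 420 and 458 CPM in the p-UPF1 IP. The p-UPF1 IP lay below the Input in all libraries and overlapped the rIgG IP. The log2 fold change was -0.77 ± 0.07 SE against the Input (adjusted p = 6.67e-06) and -0.26 ± 0.19 SE against the rIgG IP (adjusted p = 0.334). Eef2k, the kinase that inactivates eEF2, was at 5.08, 4.08 and 4.37 CPM in the Input and 9.43, 7.33 and 6.19 CPM in the p-UPF1 IP, and was higher (0.72 ± 0.18 SE, adjusted p = 0.00494). The lysine methyltransferases of eEF1A also differed. Eef1aknmt (Mettl13) was at 10.9, 10.2 and 11.2 CPM in the Input and 27.6, 32.8 and 32.5 CPM in the p-UPF1 IP (1.498 ± 0.09 SE, adjusted p = 2.38e-07), whereas Eef1akmt1 had 61, 52 and 67 counts in the Input against 1, 2 and 0 in the p-UPF1 IP and was lower (adjusted p = 4.21e-05). Eef1akmt2, Eef1akmt3 and Eef1akmt4 were also lower (-1.87, -2.23 and -2.87), with at most 4 counts in a p-UPF1 IP library.

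**Figure D3:**
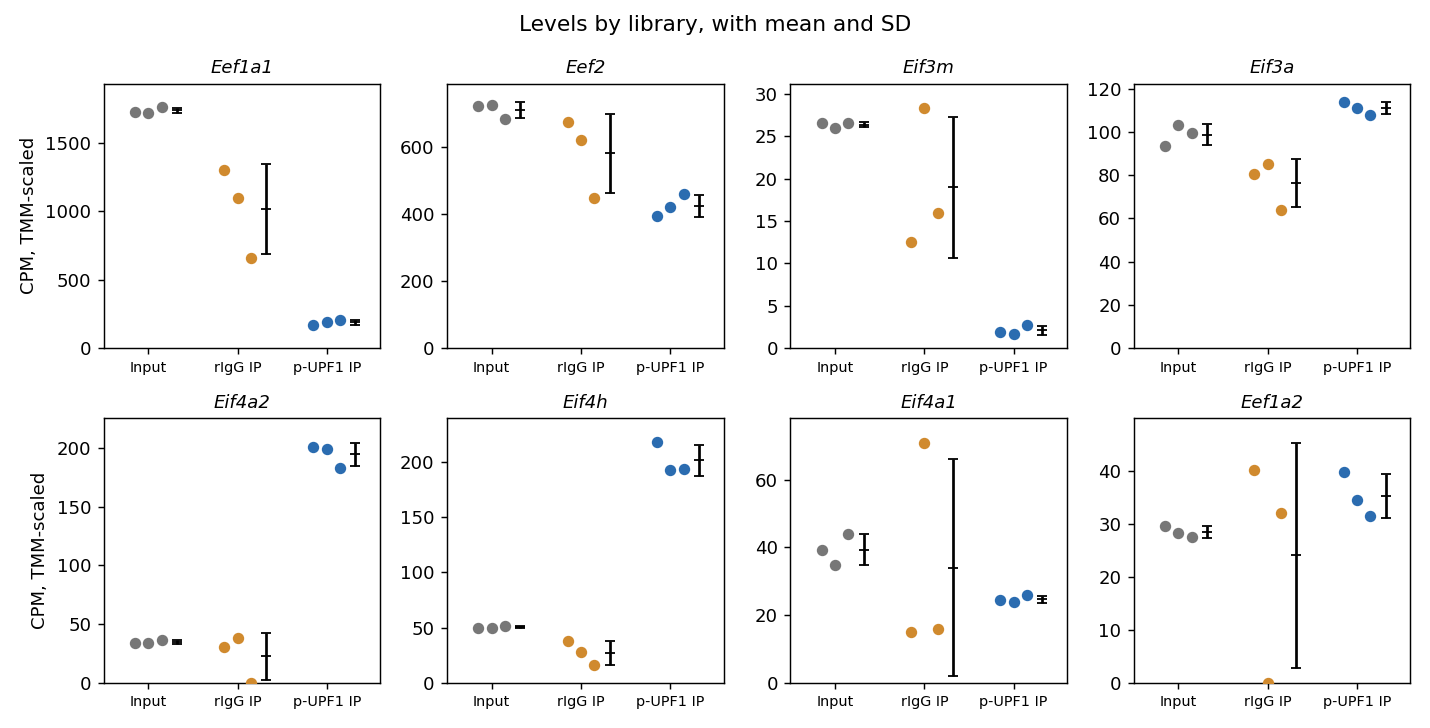
TMM-scaled CPM (y axes, from 0) of 8 genes in each Input, rIgG IP and p-UPF1 IP library (points), with the mean and SD of 3 libraries beside them. Eef1a1, Eef2 and Eif3m are lower in the p-UPF1 IP than in the Input, Eif4a2 and Eif4h are higher, and Eif3a, Eif4a1 and Eef1a2 move by less than 2-fold.

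The Eif3 genes, which encode the scaffold of the 43S complex, did not move as a unit. Of 14, 9 were lower (64.3%, background 35.7% of all symbols tested), 7 of them beyond a log2 fold change of 1 (background 26.5%). In addition, 1 was higher (background 26.3%) and 4 were not called. Eif3m (chr2:104999656-105017080, minus strand) fell furthest, from 26.6, 26.01 and 26.5 CPM in the Input to 1.957, 1.61 and 2.72 CPM in the p-UPF1 IP. This was a 12.8-fold difference (log2 fold change -3.67 ± 0.14 SE, adjusted p = 8.83e-09), and Eif3m was also lower than in the rIgG IP (-2.85 ± 0.57 SE, adjusted p = 5.76e-04), where it had 5, 6 and 2 counts. Eif3e (-3.36), Eif3h (-2.91), Eif3f (-2.78), Eif3k (-2.43), Eif3l (-2.03) and Eif3i (-2.001) were lower as well. Eif3a, the largest subunit and the most counted, was at 93.6, 103 and 99.3 CPM in the Input and 114, 111 and 108 CPM in the p-UPF1 IP, which was not called against the Input (0.14 ± 0.07 SE, adjusted p = 0.0931) and was higher against the rIgG IP (0.72 ± 0.22 SE, adjusted p = 0.0163). That call was lost without any 1 of the rIgG IP libraries (adjusted p = 0.0794, 0.0719 and 0.0539). Eif3b, an RNA-binding core subunit, was higher than in the Input, at 79.4, 70.5 and 76.3 CPM against 54.9, 53.2 and 56.8 CPM (0.43 ± 0.07 SE, adjusted p = 5.51e-04). Eif3c (-0.18, adjusted p = 0.0680) was not called. Eif3j1 and Eif3j2 were also not called, and 94.4% of the windows of Eif3j2 are shared with other symbols, mainly Eif3j1, so their split is uncertain.

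Start-site sequences are shown because a TOP tract lies at the cap, although the TOP-type genes here were taken by symbol, not sequence. A run that begins further in than the cap is not such a tract. RefSeq (GRCm38.p6) start regions were found for 12 of the 16 TOP-type genes and 37 of the 49 others. The motif searched, on the transcribed strand, was a run of at least 5 C or T that begins with C, here in capitals, with the first base in the region from the start to 40 bases after it. The run began 16 bases into the region for Eef2, 1 for Eif3f, 14 for Eif3k, 5 for Eif3l, 19 for Eif3m and 32 for Eif3a, counting the annotated start as 1. The Eif3f run extends further upstream, to 15 bases in all. The Eef1a1 stretch (chr9:78481710-78481737, minus strand) is that of the run within 10 bases of the start, since Eef1a1 has none in the 40-base region. Part of this stretch lies before the annotated start, and whether it is transcribed was not tested. Shown beside it are Eef2, Eif3a and the Eif3 genes with a start region that were lowest in the p-UPF1 IP. The stretches from Eef2 on are, in the order printed, chr10:81176638-81176665 (+), chr7:108934407-108934434 (+), chr7:28981856-28981883 (-), chr15:79075219-79075246 (+), chr2:105016990-105017017 (-) and chr19:60790644-60790670 (-).
Eef1a1: tggctccgCCCTCTTCCCgagggtgggg
Eef2: tcagcggtCTCTTCCgccgcagccgccg
Eif3f: taggctctCTCTCTTTCTCggcaagatg
Eif3k: tgaaagcgCCTTTCCCTTTgccttcctt
Eif3l: ttcttccgCTCTCTCCCacgggcttctg
Eif3m: cggagcgtCTTCCgcagcccggccttca
Eif3a: acgtggttCCTTCCTTTCCgtctctgg

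Such a run was present in this window in 10 of 12 TOP-type genes (83.3%), 18 of 37 others (48.6%) and 13804 of 27025 symbols with a start region (51.1%). This window was chosen after values were seen, and the 2 TOP-type genes without such a run in it were Eef1a1 (longest run 3) and Eif3g (longest run 4). The run of 10 bases in Eef1a1 starts at position -5, before the annotated start. Whether the annotated start of Eef1a1 is the cap used in these cells was not tested. Neither this run nor the lack of one in the window can thus be read as a statement on its TOP tract. Within 10 bases of the start on either side the shares were 4 of 12 (33.3%), 12 of 37 (32.4%) and 9297 of 27025 (34.4%), so the 2 sets differed in one window and not in the other. Eif3a and Eif3m both hold a run, and their log2 fold changes were 0.14 and -3.67.

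Of the early initiation factors, Eif1, which guards start codon choice, was lower. Its level was 159, 158 and 174 CPM in the Input, 90.5, 75.7 and 56.0 CPM in the rIgG IP and 27.2, 31.9 and 34.1 CPM in the p-UPF1 IP, and the 3 groups did not overlap. The log2 fold change was -2.42 ± 0.09 SE against the Input (adjusted p = 8.57e-09) and -1.13 ± 0.24 SE against the rIgG IP (adjusted p = 0.00105), and the rIgG IP was itself lower than the Input (-1.05 ± 0.21 SE, adjusted p = 0.0442). The latter call was lost without any 1 of 5 of the 6 libraries (adjusted p = 0.0600 to 0.225), and the call against the rIgG IP without its first library (adjusted p = 0.0726). Eif1a, Eif1ax and Eif1b were lower too. Eif1ad, whose protein resembles eIF1A in its RNA-binding domain, was the exception, at 6.76, 7.22 and 6.66 CPM in the Input and 16.5, 17.3 and 16.2 CPM in the p-UPF1 IP (1.25 ± 0.09 SE, adjusted p = 8.59e-07).

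The eIF2 subunit genes Eif2s1, Eif2s2 and Eif2s3x were grouped with Eif2a and Eif2d, which encode separate factors. Of these 5 genes tested, 4 were lower (background 35.7% of all symbols tested) and none was called higher (background 26.3%). Eif2a, an alternative initiator tRNA carrier, was at 13.97, 13.5 and 14.5 CPM in the Input and 2.49, 3.66 and 4.53 CPM in the p-UPF1 IP (-1.98 ± 0.15 SE, adjusted p = 1.50e-06). Eif2s1, the subunit whose phosphorylation halts initiation under stress, was lower by 1.48 on the log2 scale. Eif2s2, the beta subunit, was at 43.6, 43.4 and 50.6 CPM in the Input and 55.9, 33.6 and 34.7 CPM in the p-UPF1 IP and was not called (-0.18 ± 0.17 SE, adjusted p = 0.373). Without the first p-UPF1 IP library it was lower (-0.42, adjusted p = 0.00579). For eIF2B, the exchange factor of eIF2, the epsilon subunit gene Eif2b5 was lower (14.2, 13.2 and 13.8 CPM against 8.36, 7.77 and 7.55 CPM, log2 fold change -0.83 ± 0.10 SE, adjusted p = 3.47e-05), Eif2b3 was lower by 0.54, and Eif2b1, Eif2b2 and Eif2b4 were not called. Eif2b4 had 96, 83 and 119 counts in the Input against 25, 29 and 47 in the p-UPF1 IP. It was among the 11 genes higher than in the rIgG IP, but it had no count there and its p-UPF1 IP level was under the level that 3 counts give in those libraries, so no fold is given.

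By summed counts, Eif4a2 and Eif4h of the cap-binding and helicase factors had the highest fold changes of the members over the Input. Eif4a2 and Eif4a1 encode close paralogs of the helicase eIF4A. Eif4a2 (chr16:23107444-23114136, plus strand) was at 33.6, 33.9 and 36.5 CPM in the Input, 30.2, 37.9 and 0 CPM in the rIgG IP and 201, 199 and 183 CPM in the p-UPF1 IP, which lay above the other 6 libraries. It was 5.50-fold higher than in the Input (2.46 ± 0.08 SE, adjusted p = 2.57e-09) and 8.41-fold higher than in the rIgG IP (3.07 ± 0.31 SE, adjusted p = 5.81e-08). Without transcripts whose exons hold a small RNA gene, an alternative chosen after seeing the data, the log2 fold change over the Input was 1.17 (adjusted p = 2.24e-06), below those of Eif4h (1.97), Eef1aknmt (1.495), Eif1ad (1.25) and Eif4e2 (1.20) in the same fit. Eif4a1 was at 39.3, 34.7 and 43.9 CPM in the Input and 24.4, 23.9 and 25.8 CPM in the p-UPF1 IP, and was lower (-0.70 ± 0.10 SE, adjusted p = 1.67e-04). That call was lost without transcripts that hold a small RNA (-0.01, adjusted p = 0.995), and 30.6% of its windows are shared with other symbols, chiefly Eif4a-ps4. Eif4h (chr5:134619721-134639490, minus strand), a cofactor of eIF4A, was at 49.9, 49.9 and 51.5 CPM in the Input, 37.7, 28.4 and 16.01 CPM in the rIgG IP and 218, 193 and 194 CPM in the p-UPF1 IP. It was 3.92-fold higher than in the Input (1.97 ± 0.08 SE, adjusted p = 1.07e-08) and 7.60-fold higher than in the rIgG IP (2.93 ± 0.28 SE, adjusted p = 1.83e-08). Eif4b, the related cofactor, was at 100.4, 103 and 103 CPM and at 95.7, 104 and 103 CPM, and was not called (-0.04 ± 0.06 SE, adjusted p = 0.615).

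Of the eIF4G scaffolds, Eif4g1 was higher (88.0, 83.2 and 84.3 CPM against 150, 153 and 154 CPM, log2 fold change 0.81 ± 0.06 SE, adjusted p = 1.36e-06) and Eif4g3 was higher by 0.69. Eif4g2, whose protein does not bind eIF4E, was lower, at 213, 213 and 229 CPM in the Input and 84.2, 85.6 and 97.1 CPM in the p-UPF1 IP (-1.32 ± 0.08 SE, adjusted p = 1.64e-07). Among the cap-binding proteins, Eif4e was lower by 0.82 and Eif4e2, the homolog that represses translation, was higher, at 14.3, 15.1 and 15.9 CPM against 32.03, 37.5 and 36.5 CPM (1.20 ± 0.09 SE, adjusted p = 7.75e-07). The eIF4E-binding repressors Eif4ebp1 and Eif4ebp2 were both lower. Eif4ebp2 was at 39.5, 38.1 and 37.5 CPM in the Input and 13.5, 14.1 and 13.7 CPM in the p-UPF1 IP (-1.50 ± 0.08 SE, adjusted p = 7.30e-08). Against the rIgG IP, where it was at 60.3, 14.2 and 8.003 CPM, it was at -1.21 (adjusted p = 0.0256), and at 0.43 (adjusted p = 0.668) without the first rIgG IP library.

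Of the late factors, Eif5, the GTPase activator of eIF2, was higher, at 57.1, 57.1 and 62.0 CPM in the Input and 90.8, 81.9 and 91.8 CPM in the p-UPF1 IP (0.56 ± 0.08 SE, adjusted p = 9.74e-05). In the rIgG IP it was at 32.7, 28.4 and 32.01 CPM. Eif5a2, a form of the hypusine-containing factor, was lower, at 5.40, 7.69 and 7.29 CPM against 1.60, 3.22 and 2.57 CPM (-1.46 ± 0.24 SE, adjusted p = 3.59e-04). Eif5b and Eif6 were not called (0.05 and 0.00). Besides Eif4a2 and Eif4h, 6 of the genes named above were called higher than in both the Input and the rIgG IP: Eef1aknmt (1.57 against the rIgG IP), Eif1ad (2.25), Eif4e2 (1.76), Eif4g1 (1.18), Eif4g3 (1.71) and Eif5 (1.72). The call of Eef1aknmt was lost without the second rIgG IP library (adjusted p = 0.0865) and that of Eif1ad without the second or the third (adjusted p = 0.0931 and 0.0505). The p-UPF1 IP libraries enter both comparisons. Of all symbols tested, 26.3% were higher than the Input and 17.9% were higher than the rIgG IP. The share of all symbols higher in both was not counted, so no enrichment of the group can be read from these genes.

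The transcripts of the members were tested in the same way. Of 254 member transcripts tested, 28 were higher (background 9.44% of all transcripts tested) and 68 were lower (background 17.2%). By annotated type, 13 of 148 protein_coding transcripts were higher and 46 lower, 11 of 75 retained_intron transcripts were higher and 16 lower, 3 of 18 nonsense_mediated_decay transcripts were higher and 2 lower, and 1 of 13 processed_transcript entries was higher and 4 lower. The most-counted transcript of the genes called beyond a log2 fold change of 1, together with those of Eef1a2, Eef2 and Eif4a1, was lower for 23 of 26 genes called lower and higher for 5 of 6 called higher. Its counts are part of the sums by which the genes were called, so this agreement is no separate support. The exception among the genes called higher was Eef1a2, which has only 1 transcript. Transcript counts are estimates from short fragments, which often do not tell transcripts of a gene apart.

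In Eef1a1, transcript Eef1a1-207 had 19052, 18001 and 21243 counts in the Input and 0 in each p-UPF1 IP library, at least 1399-fold lower per total count. Eef1a1-205, which retains an intron of 89 nt, had 13, 14 and 17 counts in the Input, 0 in each rIgG IP library and 505, 781 and 766 in the p-UPF1 IP, where it was 54.0 to 59.8% of the gene (adjusted p = 5.42e-05). Thus a transcript of Eef1a1 was higher although the gene as a whole was lower. In Eif4a2, Eif4a2-220, which retains an intron of 239 nt, had 217, 106 and 249 counts in the Input against 811, 1010 and 869 in the p-UPF1 IP, 71.6 to 74.4% of the gene (3.74 ± 0.32 SE, adjusted p = 0.00107). In Eif4h, Eif4h-205, which holds an exon of 60 nt that is absent from Eif4h-201, had 4, 5 and 7 counts in the Input against 152, 359 and 495 in the p-UPF1 IP (7.38 ± 0.51 SE, adjusted p = 5.63e-04). Eif4h-201 remained the main transcript, with 1068, 953 and 785 counts.

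Junctions at which the transcripts of each pair below differ are shown as 30 bases of the transcript on GRCm38. The last 15 bases of the upstream exon are in capitals and the bases that follow in lower case. Other transcripts of the gene may share these junctions, and reads across them were not counted. The first of each pair reads into the retained intron or the added exon, and the second into the next exon. Their spans are chr16:23111249-23111278 (+), chr16:23111249-23111517 (+), chr5:134624486-134625380 (-), chr5:134622072-134625380 (-), chr9:78479609-78479638 (-) and chr9:78479520-78479638 (-), introns included. Both retained introns open with gt, the usual splice donor.
Eif4a2-220: ACAGTTTCTGCTCTGgtaagagttagattt
Eif4a2-202: ACAGTTTCTGCTCTGcatggtgacatggac
Eif4h-205: GACCTGATGACAGAGgaatgggtggctctc
Eif4h-201: GACCTGATGACAGAGgctacagggatgact
Eef1a1-205: TCTATAAAATTGGAGgtaagtagaatatta
Eef1a1-201: TCTATAAAATTGGAGgcattggcactgtcc

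**Figure D4:**
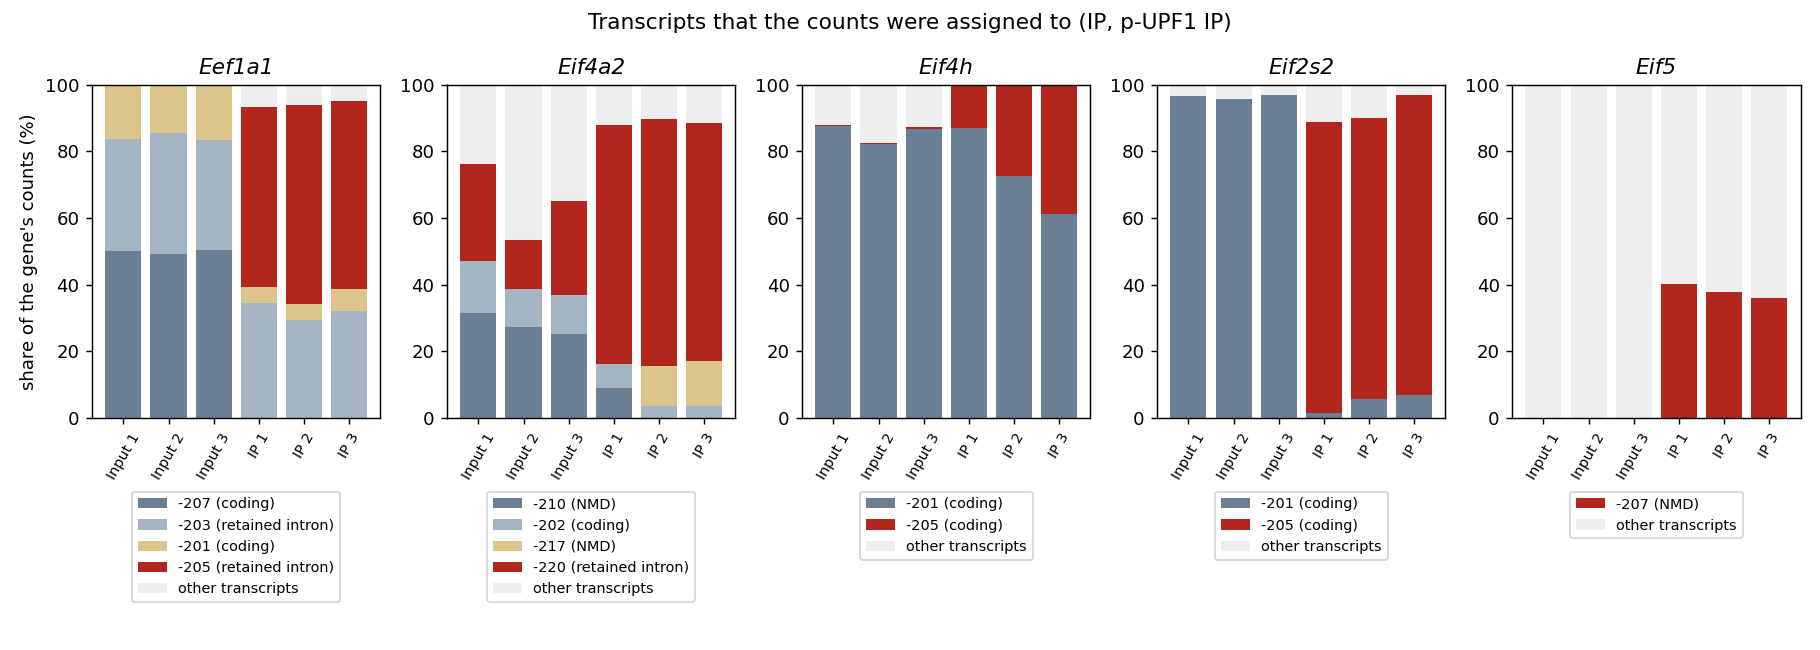
Stacked bars give the share of each gene's counts (%, y axis) assigned to the transcripts named in the key, in the 3 Input and 3 p-UPF1 IP libraries (x axis), with the annotated type in brackets. Red marks the transcript that gained in the p-UPF1 IP, such as Eef1a1-205 at 54.0 to 59.8%.

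Eif2s2 and Eif5 showed the same kind of change without a change, or with a small one, in the gene. Eif2s2-201 had 928, 887 and 1181 counts in the Input against 4, 13 and 16 in the p-UPF1 IP, while Eif2s2-205 had 0 in the Input against 275, 193 and 207 in the p-UPF1 IP, at least 349-fold higher per total count. Eif2s2-205 also held 6, 5 and 0 of the 6, 5 and 2 counts of the gene in the rIgG IP. Eif5-207, annotated as nonsense_mediated_decay, had 0 counts in all Input and rIgG IP libraries and 205, 212 and 218 in the p-UPF1 IP, at least 324-fold higher than in the Input. The 2 other nonsense_mediated_decay transcripts called higher were Mettl13-203 of Eef1aknmt (0 in the Input against 26, 41 and 27 counts) and Eif4g1-222 (619, 526 and 602 against 309, 384 and 343 counts, log2 fold change 0.74).

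Over all members, transcripts annotated as nonsense_mediated_decay held 2.01, 3.24 and 2.04% of the counts in the Input, 1.64, 2.33 and 2.28% in the rIgG IP and 7.41, 7.23 and 7.39% in the p-UPF1 IP. The p-UPF1 IP libraries were above the 6 others. Without Eef1a1 the values were 3.25, 5.28 and 3.31% in the Input against 7.98, 7.87 and 8.07% in the p-UPF1 IP. Of the TOP-type counts, such transcripts took at most 0.0041% (Input) or 0.0789% (p-UPF1 IP). The share over all members thus also depends on how much of the counts the TOP-type genes hold. For the comparison group alone it was 6.10, 10.1 and 6.03% (Input), 4.86, 6.74 and 6.25% (rIgG IP) and 12.1, 12.2 and 12.8% (p-UPF1 IP). The p-UPF1 IP was again highest, with the second Input library nearest to it. The share was higher in the p-UPF1 IP for 8 of 11 members (72.7%) with such a transcript and a mean count of at least 50, with a median change of 5.35 percentage points, and for 998 of 2370 symbols overall (42.1%). Transcripts annotated as retained_intron held 17.0, 18.3 and 16.6% in the Input against 18.8, 19.6 and 19.1% in the p-UPF1 IP. Once transcripts that hold a small RNA were left out, the order turned, with 17.5, 19.0 and 17.1% in the Input against 13.4, 14.05 and 14.3% in the p-UPF1 IP. The order did not turn over the members other than Eef1a1, although their p-UPF1 IP share also fell. Eef1a1-201 and Eif4a2-220 were both among the transcripts left out, and the part of each in the turn was not tested. Over the members other than Eef1a1 the retained_intron share was 6.47, 6.82 and 6.26% in the Input, 8.17, 9.69 and 7.18% in the rIgG IP and 13.1, 13.1 and 12.4% in the p-UPF1 IP with all transcripts. Without those that hold a small RNA it was 5.34, 5.97 and 4.97% in the Input, 7.23, 8.82 and 7.34% in the rIgG IP and 6.56, 6.23 and 6.44% in the p-UPF1 IP, above the Input and below the rIgG IP.

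**Figure D5:**
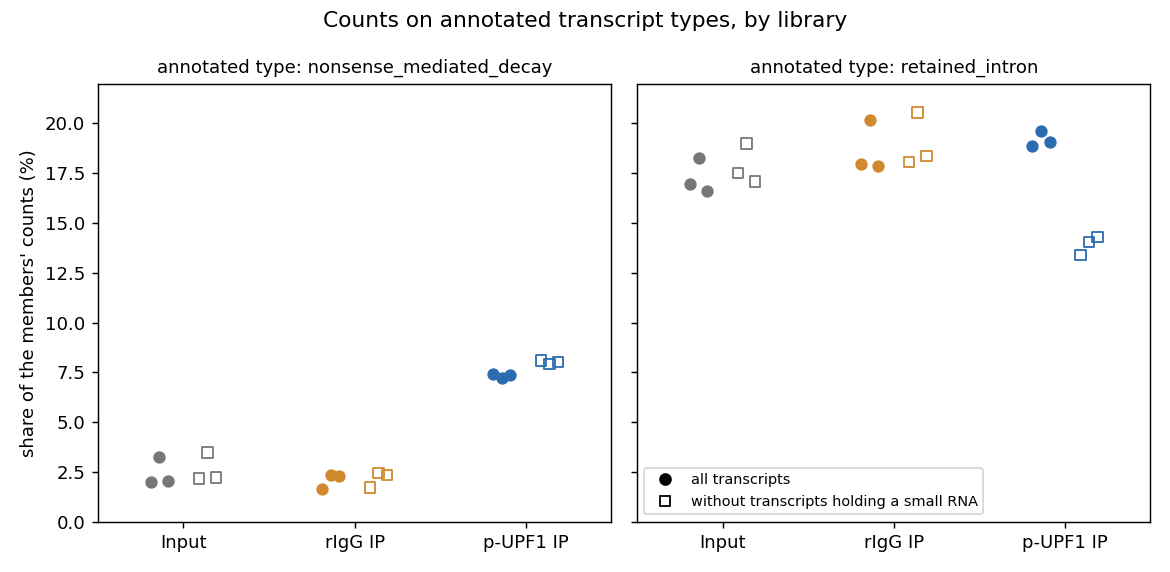
Share of the counts of all members (%, y axis) on transcripts annotated as nonsense_mediated_decay (left) or retained_intron (right) in each library (points), with all transcripts (circles) or without those that hold a small RNA (squares). The nonsense_mediated_decay share is 7.23 to 7.41% in the p-UPF1 IP and 1.64 to 3.24% elsewhere, and the retained_intron share falls to 13.4 to 14.3% in the p-UPF1 IP without transcripts that hold a small RNA.

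Several members host small nucleolar RNAs (snoRNAs), short guide RNAs processed from introns, whose own counts are given here. Snord2, within Eif4a2, had 571, 551 and 504 counts in the Input against 2124, 2106 and 2001 in the p-UPF1 IP. Gm26447, which lies inside the intron retained in Eif4a2-220, had 14, 28 and 14 counts in the Input against 138, 146 and 130 in the p-UPF1 IP. Without transcripts that hold a small RNA, where Eif4a2 and Eif4a1 changed as given above, Eef1a1 and Eif5 were at -3.08 and 0.58. Snora28, within Eif5, went from 11, 12 and 10 to 216, 271 and 224 counts, and Gm26457, within Eef1b2, from 79, 97 and 114 to 991, 1056 and 978, although Eef1b2 was lower. Snora41, also within Eef1b2, had 49, 64 and 59 counts in the Input against 9, 14 and 10 in the p-UPF1 IP. A rise was thus not general to the snoRNAs within members. The part of the snoRNAs in the counts of Eif4a2-220 was not tested beyond leaving that transcript out.

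Fold changes were set against the length and composition of the mRNAs. Over 57 members with a coding transcript, Spearman's rho of the log2 fold change with the length of the most-counted coding transcript was 0.44, and over the 16 TOP-type genes it was 0.63, and over the 41 others 0.26. With 3′ UTR length it was 0.20 over all members, 0.60 over the TOP-type genes and -0.035 over the others. Over 9598 symbols the values were 0.24 for length and 0.15 for 3′ UTR length, and 0.43 for GC content, against 0.18 among the members. These are correlations across genes of the same libraries, given as a description. The transcript used for Eef1a1 was 859 nt long with an annotated 3′ UTR of 0 nt. Those of Eif4g1 and Eif2b2 also had a 3′ UTR of 0 nt. Such annotations may be incomplete, so the correlations and median lengths rest partly on uncertain lengths. The median length of the TOP-type transcripts was 1920.5 nt and that of the others 2542 nt, so length and class cannot be told apart in the medians above.

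The same comparison was made for 30 other genes of translation and its control. In the p-UPF1 IP over the Input, 9 were higher (background 26.3% of all symbols tested) and 15 were lower (50.0%, background 35.7%). With a log2 fold change beyond 1, 4 were higher (background 17.3%) and 9 were lower (background 26.5%). Their median was -0.36, near the -0.42 of all symbols tested. In the rIgG IP over the Input, edgeR called 0 either way (background 0.584% higher and 0.313% lower), with 0 higher and 6 lower at an unadjusted p under 0.05. DESeq2 also called 0, with 0 higher and 1 lower unadjusted. The TOP mRNAs Tpt1 and Rack1 were lower (-4.19 and -2.70), as was Pabpc1, the poly(A)-binding protein (-1.85). Pabpc4, its inducible relative, was higher (1.94). Ppp1r15a (Gadd34), which directs the phosphatase that reverses eIF2 phosphorylation, was at 439, 396 and 440 counts in the Input against 1153, 1452 and 1284 in the p-UPF1 IP, a 10.6-fold difference after scaling (3.40 ± 0.08 SE, adjusted p = 5.70e-10). Paip2b and Mknk2 were also higher (1.73 and 1.23), and Pdcd4, Etf1, Paip1, Pelo and Abce1 were lower by 1.55, 1.35, 1.28, 1.20 and 1.12. Mcts1 had 63, 62 and 75 counts in the Input against 1, 0 and 0 in the p-UPF1 IP.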

How the data were processed

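The study made RIP-seq libraries from RNase I fragments of N2A-cell RNA, 3 each of Input, rIgG IP and p-UPF1 IP. The authors trimmed reads with fastp, mapped them with STAR 2.7.0f to GRCm38.p6 and quantified transcripts with Salmon 0.13.1. The deposited values are estimated counts per transcript, whole numbers not scaled for library size. How they were rounded is not given in the sources used here. All 9 sample columns were matched by name, and 0 were left unmapped. Replicates were not pooled, and no 2 libraries of a group agreed within sampling noise.

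Counts were summed per gene symbol. Symbols with a summed count of at least 10 in the 6 libraries of a comparison were tested with edgeR 4.0.16 (R 4.3.3; TMM, quasi-likelihood), with Benjamini-Hochberg adjustment over all symbols. A standard error is the log2 fold change over the square root of F. CPM values use TMM factors of all 9 libraries, whereas each fold change uses the factors of its own comparison. Genes at 0 in a group were bounded against 3 counts per library. The fit was checked on simulated data, where the share of false calls was above the adjusted p threshold in each comparison. Sequences came from RefSeq and GENCODE M21 (GRCm38), a release before that of the authors.

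Members and lists were chosen with earlier results of these data known. Named with full values were Eef1a1, Eef1a2, Eef2, Eif4a1 and Eif4a2, and in each role group the gene with the most counts and those with the highest and lowest fold change over the Input at a mean count of at least 20. The most-counted transcript was added for genes beyond a log2 fold change of 1. The 30 other translation genes were a list by symbol, of which Pabpc1, Tpt1, Rack1 and those beyond 1 were named. Other genes, transcripts and snoRNAs were named after their values were seen. Alternatives were library totals, RLE factors, DESeq2 1.42.0, filterByExpr, no filter, all 9 libraries in one fit, a replicate block, single transcripts, a narrower TOP list, a mean count of at least 50 and leaving out each library. A further one, added after seeing the data, left out 570 transcripts with a snoRNA, scaRNA, snRNA or miRNA gene in an exon. Among them were Eef1a1-201, Eif3j1-201 and Eif3j2-201, which hold annotated miRNA genes, so not only snoRNA hosts were removed.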

Additional observations from a re-analysis of the deposited data

How the results depend on the processing

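The direction of the TOP-type shift against the Input and the calls of Eef1a1, Eif3m, Eef2, Eif4a2 and Eif4h held under all alternatives that were run. The difference of medians against the Input was -0.91 with filterByExpr, -2.08 with the narrower TOP list and -1.25 with members of a mean count of at least 50, and -0.97 to -0.74 with each library left out. Against the rIgG IP it was -0.53 with members of a mean count of at least 50. For the rIgG IP against the Input, where it was -0.03, it was 0.069 with the replicate block and -0.077 to 0.55 with each library left out. Counts of genes higher than the Input went from 12 to 20 with library totals and with single transcripts, and ran from 10 to 12 with a library left out. Against the rIgG IP, 7 were higher with DESeq2 and 17 with single transcripts, and 4 were lower with single transcripts. With a library left out, 6 to 12 were higher (6 without rIgG IP replicate 2) and 5 to 12 lower (5 without rIgG IP replicate 1). Below the Input in the rIgG IP were 0 with RLE factors, library totals or single transcripts, 3 with filterByExpr and 5 without a filter, and 0 to 1 with a library left out.

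With library totals Eif2s2 was at 0.22 and Eif4b at 0.37. With a library left out, Eif2b4 over the Input ran from -0.013 to 0.41 (lowest without p-UPF1 IP replicate 3), Eif4b from -0.034 to 0.032 and Eif4ebp2 against the rIgG IP from -1.63 to 0.43. The call of Eef1a2 over the Input was lost without a filter, with all 9 libraries in one fit, in the fit of transcripts and without p-UPF1 IP replicate 1. Eif2s2 was called lower (-0.42) without p-UPF1 IP replicate 1. The calls of Eif3a and Eif2s2 over the rIgG IP were lost with DESeq2, RLE factors, filterByExpr and each rIgG IP library left out, that of Eif1 in the rIgG IP with RLE factors and library totals, and that of Eif1ad with DESeq2. Eef2 was called lower than the rIgG IP with DESeq2, RLE factors and filterByExpr, and Eif3a higher than the Input with DESeq2, filterByExpr and library totals. The causes were not tested. Same-numbered libraries did not deviate together (correlations -0.03 to 0.05), so the numbers were not taken as pairs, and with the replicate block 12 genes were higher and 34 lower than the Input, and 9 higher and 7 lower than the rIgG IP. The depth of the rIgG IP limits every comparison with it.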
